A study of Mus musculus with 12 samples.

Results

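The 6 genes described here encode proteins that the airway epithelium makes for the fluid on its surface, together with a detoxifying enzyme of the same cells: Scgb1a1, Scgb3a2 and Cyp2f2 of club cells, and Scgb3a1, Bpifb1 and Bpifa1, which are best known from the nose, the large airways and their glands. They were chosen by name, and every probe set that the platform annotation pairs with a single symbol equal to 1 of these names was used, which gave 7 probe sets of 6 genes out of 18194 genes with such a probe set. In this mouse asthma model, male A/J mice aged 8 to 10 weeks received ovalbumin (OVA, the allergen), ambient particulate matter collected in Baltimore (PM), both, or the PBS vehicle, and RNA of the whole lung was hybridized to Affymetrix mouse genome arrays on day 4 after the particles or vehicle. Each of the 4 groups had 3 arrays, 12 in all: PBS/PBS mice received vehicle in place of both agents. OVA/PBS mice were sensitized with 0.4 mg/kg OVA by intraperitoneal injection on day 0, challenged with 30 mg/kg OVA into the trachea on day 14 and then given vehicle. PBS/PM mice were not sensitized and aspirated 50 µl of PM at 10 mg/ml, and OVA/PM mice received the allergen as well as the particles. No group carries a genetic alteration, all 4 share the A/J background, and a change in whole lung RNA gives no cell of origin.

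Levels are log2 intensities, and a difference of 1 is a doubling of intensity. The number of arrays limits the precision. Since an exact permutation test of 3 arrays against 3 goes no lower than p = 0.1, each gene was tested with limma, fitted over all probe sets kept, with Benjamini-Hochberg adjustment. The comparisons with vehicle share the 3 PBS/PBS arrays. The names of the single exposures carry a doubt. The folds that the study tabulated for named genes, a probe set of Bpifb1 among them, equal ratios of the deposited values with the names OVA and PM exchanged. The sample labels were kept here and are named as labels throughout (labelled OVA, labelled PM), and with the names exchanged each value given for 1 of them would be the other's. The PBS/PBS and OVA/PM arrays are not touched by the doubt. In OVA/PM replicate 3 the spiked control BioB read 6.65, against at most 4.68 in the other arrays.

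Club cells are the dome-shaped secretory cells of the small airways. They secrete secretoglobins, small disulfide-linked dimers, carry cytochromes that oxidize inhaled compounds, and act as progenitors that can turn into goblet or multiciliated cells. The BPI-fold proteins, named for bactericidal/permeability-increasing protein, bind lipids and bacterial surfaces, and Bpifa1 and Bpifb1 are abundant in the fluid of the nose and large airways. In rodents the goblet cell state of allergic airways arises largely from club cells.

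The start regions of 3 genes of the upper airway set are shown because their levels went different ways, as given below: Scgb3a1 and Bpifb1 were higher than in PBS/PBS in all exposed arrays, and Bpifa1 was not. Each window holds 250 bases before and 50 bases after the gene start, from RefSeq on GRCm38.p6, plus strand, at chr11:49663345-49663644 for Scgb3a1, chr2:154190568-154190867 for the first of 2 starts of Bpifb1 and chr2:154142630-154142929 for Bpifa1. Capitals mark matches of a motif on either strand: GCAAACA is a forkhead match (TGTTTNC read on the opposite strand), CTTGAG an NKX2-1 match (CTCAAG read on the opposite strand), and TATAAA marks the box of that name.
Scgb3a1: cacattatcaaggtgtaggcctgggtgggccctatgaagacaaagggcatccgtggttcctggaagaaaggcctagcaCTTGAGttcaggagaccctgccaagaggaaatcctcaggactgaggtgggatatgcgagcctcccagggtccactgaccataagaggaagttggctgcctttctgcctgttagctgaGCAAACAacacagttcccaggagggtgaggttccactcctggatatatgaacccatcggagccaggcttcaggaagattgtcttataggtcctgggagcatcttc
Bpifb1: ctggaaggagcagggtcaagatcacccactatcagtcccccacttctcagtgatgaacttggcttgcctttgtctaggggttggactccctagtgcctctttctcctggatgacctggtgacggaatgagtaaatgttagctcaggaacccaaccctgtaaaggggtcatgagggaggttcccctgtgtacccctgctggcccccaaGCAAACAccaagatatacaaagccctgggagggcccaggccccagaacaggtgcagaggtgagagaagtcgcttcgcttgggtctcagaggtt
Bpifa1: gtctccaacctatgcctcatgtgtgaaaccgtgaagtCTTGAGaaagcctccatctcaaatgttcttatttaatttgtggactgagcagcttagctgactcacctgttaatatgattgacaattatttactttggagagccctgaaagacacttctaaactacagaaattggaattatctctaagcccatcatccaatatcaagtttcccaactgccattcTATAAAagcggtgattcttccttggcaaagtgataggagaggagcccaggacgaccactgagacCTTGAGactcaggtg
The forkhead match began 55 bases before the start of Scgb3a1 and 43 bases before that of Bpifb1. NKX2-1 matches began 172 bases before the start of Scgb3a1, and 213 bases before and 35 bases after that of Bpifa1, which also had the TATA box 29 bases before its start. The C/EBP motif TTGCNNAA and the palindromic STAT6 motif were searched for too and had no match in these windows, and no match overlapped another motif. Over 32851 windows of the same length, 20.5% held the forkhead motif, 15.9% the NKX2-1 motif, 10.8% the C/EBP motif, 6.95% the STAT6 motif and 13.6% the TATA box. Neither the window of Cyp2f2 nor that of the second start of Bpifb1 held any of the 5. A match is a run of letters and not a measured binding site.

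Both exposures together were followed by higher Bpifb1 and Scgb3a1 and by lower Cyp2f2, while Scgb1a1 and Scgb3a2 differed little from PBS/PBS in any group. Bpifa1 stood apart from its relative Bpifb1: it was lower on the arrays labelled PM than on those labelled OVA. That call was lost without 5 of the 6 arrays, and no change of Bpifa1 against PBS/PBS passed an adjusted p under 0.05. Of the 6 genes, 3 passed an adjusted p under 0.05 in OVA/PM against PBS/PBS, where 21.7% of all probe sets tested passed. Among the arrays labelled OVA 3 passed, against 19.2% of all probe sets, and in those labelled PM 1 passed, against 0.0719%. The arrays of a group did not overlap with PBS/PBS for 4 of the 6 genes in OVA/PM (44.5% of all probe sets), for 3 in the arrays labelled OVA (46.5%) and for 3 in those labelled PM (14%). All 6 genes lay over the filter level of 4.93, the median of all values, on 12 of 12 arrays.

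**Figure D1:**
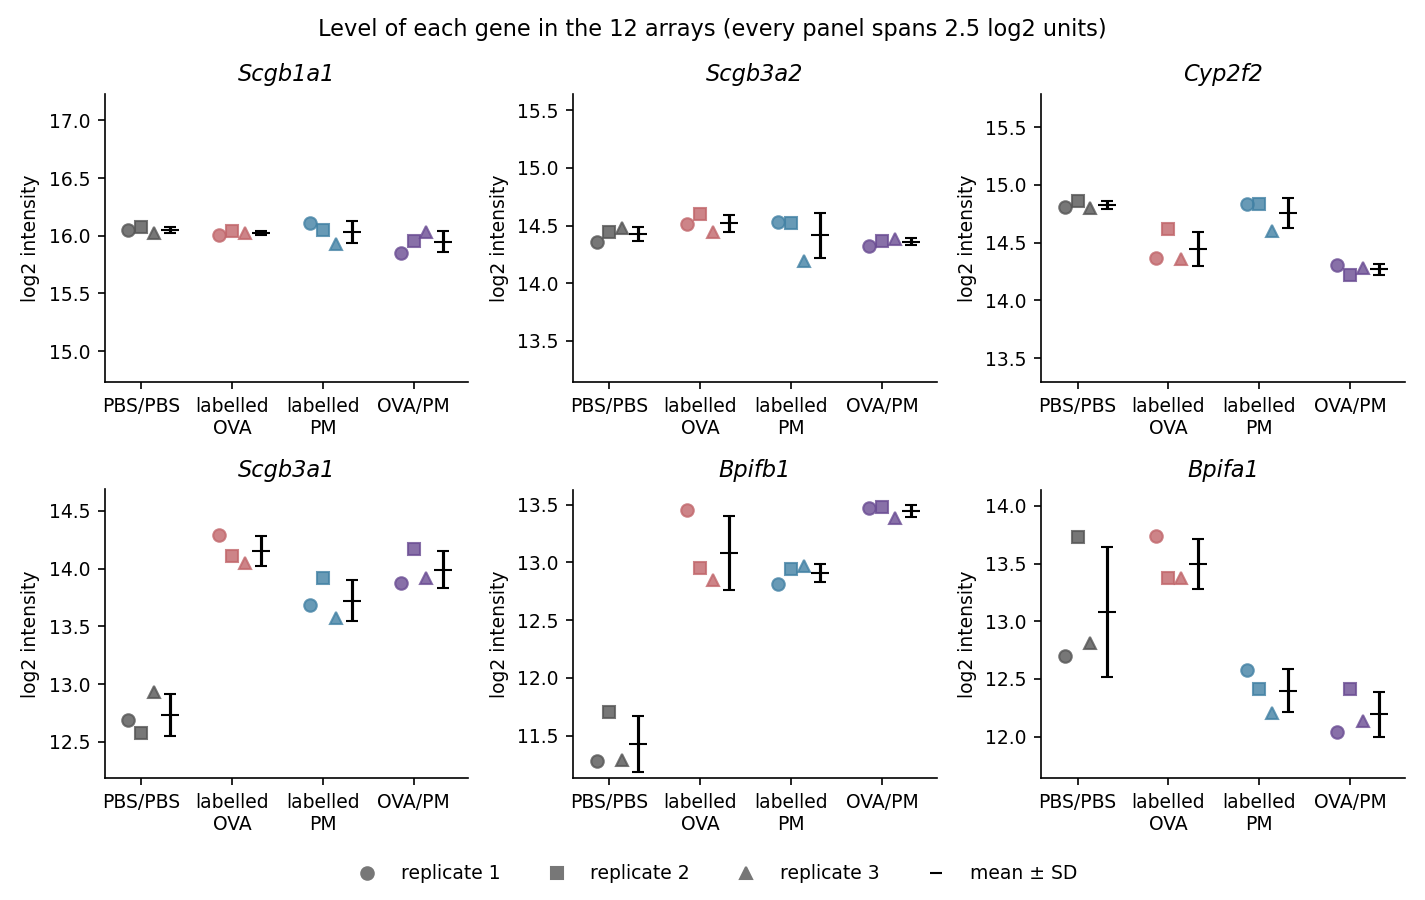
Level of each of the 6 genes (y axis, log2 intensity) on each array by group (x axis); points are arrays, and bars show the mean and SD of 3 arrays. Scgb3a1 and Bpifb1 lie higher in all 9 exposed arrays than in the 3 PBS/PBS arrays, Cyp2f2 lies lower in the 6 arrays that received OVA by label than in PBS/PBS, and Bpifa1 lies lowest in the 6 arrays that received PM by label.

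Scgb3a1, a secretoglobin of the upper airway also called HIN-1, was measured at 12.69, 12.57 and 12.93 on the PBS/PBS arrays. It read 14.29, 14.10 and 14.05 on those labelled OVA, 13.68, 13.91 and 13.57 on those labelled PM, and 13.88, 14.17 and 13.92 on the OVA/PM arrays. All 9 exposed arrays lay above the PBS/PBS arrays, and the lowest of the arrays labelled OVA lay above the highest labelled PM. In the arrays labelled OVA the level was 2.67 ± 0.417 times that of PBS/PBS (ratio of linear means, SD, n = 3 per group), with a log2 change of 1.42 (SE 0.12, limma adjusted p = 0.00621). In OVA/PM it rose 2.39 ± 0.407-fold, by 1.26 log2 units (SE 0.13, limma adjusted p = 0.00245). Both calls held without any 1 array. The arrays labelled PM had a ratio of 1.99 ± 0.352 and a log2 change of 0.99 (SE 0.13, interval of 95% from 0.67 to 1.32), which did not pass over all probe sets (limma adjusted p = 0.121). In whole lung RNA more cells of a type and more RNA per cell cannot be told apart.

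In order of their means, Scgb3a1 was highest in the arrays labelled OVA (14.15 ± 0.13, SD), followed by OVA/PM (13.99 ± 0.16), the arrays labelled PM (13.72 ± 0.17) and PBS/PBS (12.73 ± 0.18). No step between neighbours in this order passed the test. OVA/PM minus the arrays labelled OVA was -0.16 (interval from -0.45 to 0.13), and OVA/PM minus those labelled PM was 0.27 (from -0.05 to 0.58). The arrays labelled OVA minus those labelled PM gave 0.43 (SE 0.12, limma adjusted p = 0.0812), with no overlap.

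Bpifb1, a long BPI-fold protein of goblet and gland cells also called LPLUNC1, has 2 probe sets. The brighter one, used for the tests, read 11.28, 11.71 and 11.29 on the PBS/PBS arrays, 13.45, 12.95 and 12.85 on those labelled OVA, 12.82, 12.94 and 12.96 on those labelled PM and 13.47, 13.48 and 13.38 on the OVA/PM arrays. The group means were 13.44 ± 0.06 (SD) in OVA/PM, 13.08 ± 0.32 in those labelled OVA, 12.91 ± 0.08 in those labelled PM and 11.43 ± 0.24 in PBS/PBS. Every exposed array lay at least 1 log2 unit above every PBS/PBS array, and the OVA/PM arrays lay above all arrays labelled PM. Bpifb1 rose 4.01 ± 0.724-fold in OVA/PM, by 2.02 log2 units (SE 0.14, limma adjusted p = 0.00061). It rose 3.18 ± 0.929-fold in the arrays labelled OVA (log2 change 1.66, SE 0.20, limma adjusted p = 0.0105) and 2.77 ± 0.51-fold in those labelled PM (log2 change 1.48, SE 0.14, limma adjusted p = 0.0404). The first 2 calls held without any 1 array. The call in the arrays labelled PM was lost without 5 of the 6 arrays and held without PBS/PBS replicate 2, with adjusted p up to 0.232. Bpifb1 was the 1 gene of the 6 called there.

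The other probe set of Bpifb1 read 11.15, 11.63 and 11.04 on the PBS/PBS arrays, 12.94, 12.73 and 12.60 on those labelled OVA, 12.51, 12.73 and 12.71 on those labelled PM and 13.17, 13.09 and 13.14 on the OVA/PM arrays. It showed the same order against PBS/PBS, with no overlap of exposed and PBS/PBS arrays. Its log2 changes were 1.86 in OVA/PM and 1.48 in the arrays labelled OVA (limma adjusted p = 0.00134 and 0.0106). In those labelled PM the change of 1.38 did not pass (SE 0.17, limma adjusted p = 0.0917).

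Bpifb1 was also the 1 gene of the 6 that rose from the arrays labelled PM to OVA/PM. Its ratio was 1.45 ± 0.0958, with a log2 difference of 0.54 (SE 0.09, limma adjusted p = 0.0149) by the brighter probe set and 0.48 by the other (SE 0.10, limma adjusted p = 0.0246). Of the 6 genes, 2 passed in this comparison, against 12.9% of all probe sets, and the same number did not overlap (36.5%). The call of Bpifb1 was lost without PBS/PM replicate 2 (limma adjusted p = 0.0515). Against the arrays labelled OVA the difference was 0.36 (interval from -0.04 to 0.76) and did not pass.

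Bpifa1, a short BPI-fold protein also called SPLUNC1 that lowers surface tension of airway fluid and binds bacteria, read 12.70, 13.73 and 12.81 on the PBS/PBS arrays. It read 13.74, 13.38 and 13.37 on those labelled OVA, 12.58, 12.42 and 12.21 on those labelled PM, and 12.04, 12.41 and 12.13 on the OVA/PM arrays. The arrays labelled PM and OVA/PM all lay below every PBS/PBS array, and the arrays labelled OVA lay within or just above the range of PBS/PBS, where replicate 2 stood above the other two. The arrays labelled OVA were 2.14 ± 0.427 times as high as those labelled PM, a log2 difference of 1.10 (SE 0.15, limma adjusted p = 0.0338), and they did not overlap. This was the 1 call of the 6 genes between the single exposures, where 5.2% of all probe sets passed. Scgb3a1 was the other gene without overlap there, 2 of 6 beside 38.6% of all probe sets. The call of Bpifa1 was lost without 5 of the 6 arrays and held without OVA/PBS replicate 2, with adjusted p up to 0.149. From the arrays labelled OVA to OVA/PM the level differed by -1.30 (SE 0.15), a ratio of 0.405, without overlap, and did not pass (limma adjusted p = 0.0594). None of the 6 genes passed there at the filter level of 4.93, while 0.13% of all probe sets did. Bpifa1 was the 1 gene of the 6 with an unadjusted p under 0.05 (8.78% of all probe sets). It passed in limma with the filter at the 75th percentile of all values, with an offset of 16 on the linear scale or with a trend in eBayes, and also by SAM, a test by relabeling of arrays. Under the settings where Bpifa1 did not pass, limma adjusted p reached 0.241. Without 1 array it never passed (limma adjusted p from 0.0573 to 0.362). Arrays did not overlap for 3 of the 6 (15.4%).

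In order the group means of Bpifa1 were 13.50 ± 0.21 (SD) in the arrays labelled OVA, 13.08 ± 0.56 in PBS/PBS, 12.40 ± 0.19 in those labelled PM and 12.20 ± 0.19 in OVA/PM, and no step between neighbours passed. Against PBS/PBS no change of Bpifa1 passed. The change was -0.88 in OVA/PM (SE 0.28, limma adjusted p = 0.0706), a ratio of 0.517. It was -0.68 in the arrays labelled PM (interval from -1.36 to 0.01) and 0.42 in those labelled OVA (interval from -0.29 to 1.12). Without PBS/PBS replicate 2 the 3 changes were -0.56, -0.35 and 0.74, and none of them passed (limma adjusted p = 0.0811, 0.849 and 0.0673).

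**Figure D2:**
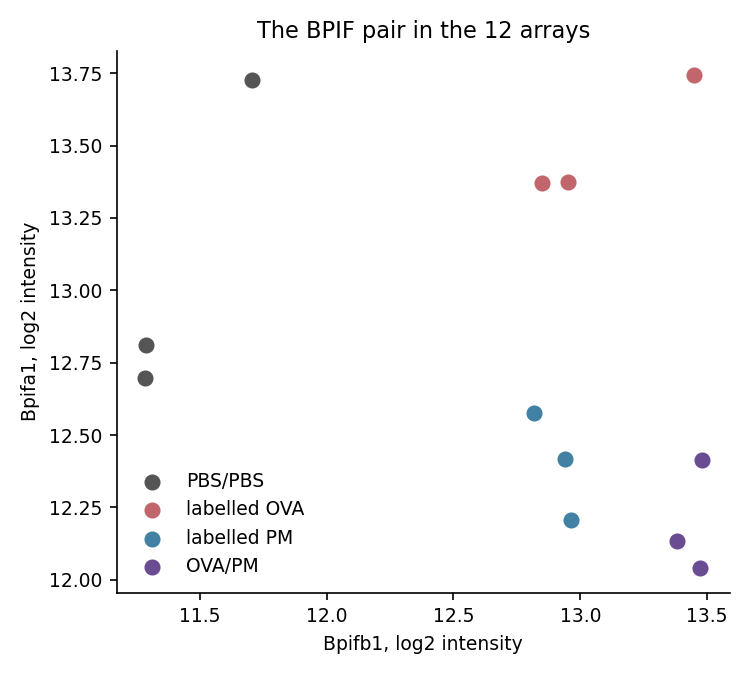
Level of Bpifa1 (y axis, log2 intensity) against that of Bpifb1 (x axis, log2 intensity), 1 point per array, coloured by group. Bpifb1 lies between 11.28 and 11.71 on the PBS/PBS arrays and at 12.82 or more on all others, whereas Bpifa1 lies at 13.37 or more on the arrays labelled OVA and at 12.58 or less on the 6 arrays that received PM by label.

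Cyp2f2, the club cell cytochrome that activates naphthalene, read 14.81, 14.86 and 14.80 on the PBS/PBS arrays and 14.83, 14.83 and 14.60 on those labelled PM. It read 14.37, 14.61 and 14.35 on the arrays labelled OVA and 14.31, 14.22 and 14.28 on the OVA/PM arrays. In order the group means were 14.82 ± 0.04 (SD) in PBS/PBS, 14.76 ± 0.13, 14.44 ± 0.15 and 14.27 ± 0.05 in the arrays labelled PM, those labelled OVA and OVA/PM. The OVA/PM arrays lay below all other arrays, and those labelled OVA lay below PBS/PBS and overlapped with those labelled PM. In OVA/PM Cyp2f2 fell by 0.55 log2 units (SE 0.08, limma adjusted p = 0.00718), to 0.682 ± 0.0279 of the PBS/PBS level, a call that held without any 1 array. It fell by 0.38 in the arrays labelled OVA (SE 0.10, limma adjusted p = 0.0447), to 0.772 of PBS/PBS, and this call was lost without 5 of the 6 arrays and held without OVA/PBS replicate 2 (adjusted p from 0.0194 to 0.142). It was lost with no filter and with a replicate block too. Between OVA/PM and the arrays labelled PM the difference was -0.49 (SE 0.10, limma adjusted p = 0.0271), lost without 5 of the 6 arrays and held without PBS/PM replicate 3. For the arrays labelled PM the change was -0.07 (interval from -0.29 to 0.16).

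Scgb3a2, a secretoglobin of the conducting airways, read 14.36, 14.45 and 14.48 on the PBS/PBS arrays, 14.52, 14.60 and 14.45 on those labelled OVA, 14.53, 14.53 and 14.19 on those labelled PM and 14.33, 14.36 and 14.39 on the OVA/PM arrays. Exposed and PBS/PBS arrays overlapped in every group. The changes against PBS/PBS were 0.09 (interval from -0.10 to 0.29), -0.01 (from -0.29 to 0.27) and -0.07 (from -0.27 to 0.13) in that order, so that intervals of 95% held neither a rise nor a fall of more than 0.29. The OVA/PM arrays lay just below those labelled OVA without overlap, by 0.16 on average, a difference that did not pass (limma adjusted p = 0.613).

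Scgb1a1 encodes the main secretory protein of club cells, known as CC10 or CCSP. It read 16.05, 16.07 and 16.02 on the PBS/PBS arrays, 16.01, 16.04 and 16.02 on those labelled OVA, 16.11, 16.05 and 15.93 on those labelled PM and 15.85, 15.95 and 16.03 on the OVA/PM arrays. All 4 groups overlapped. On every array it was among the 3 brightest probe sets and at most 0.24 below the brightest, which read 15.99 to 16.26. A probe set at the top of the scale can show little of a rise, and how much of a fall it would show there was not tested. The changes against PBS/PBS were -0.03 (interval from -0.19 to 0.14) in the arrays labelled OVA, -0.02 (from -0.21 to 0.18) in those labelled PM and -0.10 (from -0.31 to 0.11) in OVA/PM. The statement that Scgb1a1 differed little holds for intensity at this end of the scale and not for the amount of RNA.

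**Figure D3:**
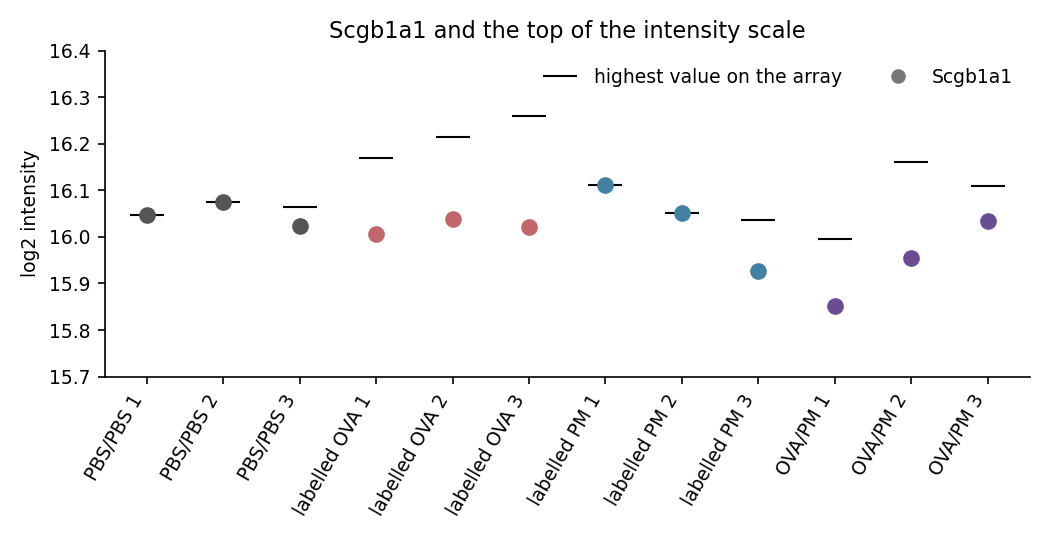
Level of Scgb1a1 (points) and the highest value of any probe set (dashes) on each of the 12 arrays (x axis), in log2 intensity on a y axis that shows the top of the scale and does not start at 0. The points lie 0 to 0.24 below the dashes.

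The plot of changes sets the genes side by side across the comparisons. Whether the change with both exposures differed from the sum of the single ones was tested as an interaction over all 12 arrays. None of the 6 genes passed (0.0264% of all probe sets did), and 2 had an unadjusted p under 0.05 (6.22% of all probe sets). For Scgb3a1 the combined change was 1.15 below the sum (log2 estimate -1.15, SE 0.18, limma adjusted p = 0.13). For Bpifb1 the estimate was -1.12 (SE 0.23, limma adjusted p = 0.318). For Bpifa1 it was -0.62 (interval from -1.39 to 0.14).

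**Figure D4:**
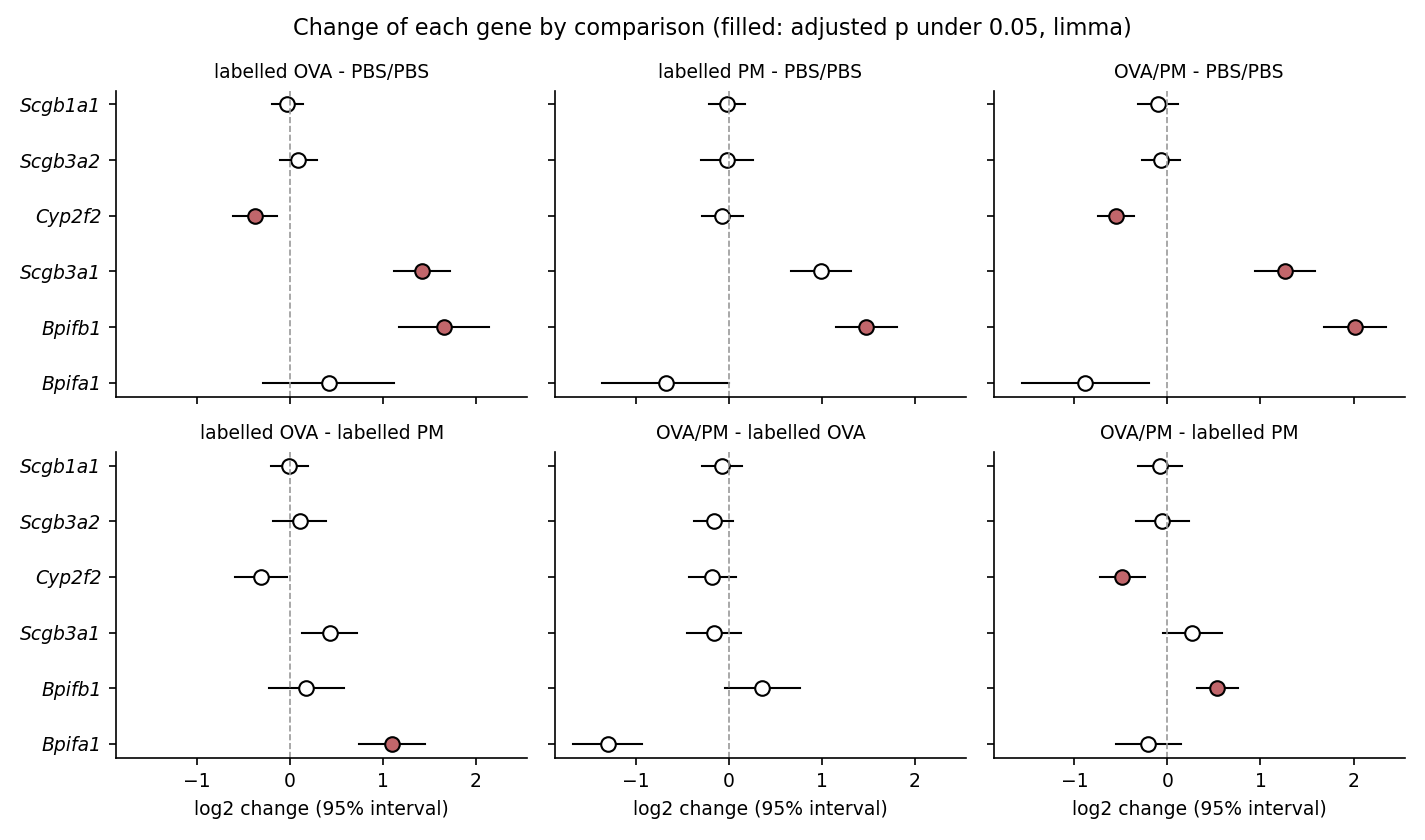
Log2 change (x axis) of each gene (y axis) in 6 comparisons, 1 panel each, as points with intervals of 95% from limma; filled points passed an adjusted p under 0.05. Bpifb1 and Scgb3a1 lie above 0 in all comparisons with PBS/PBS, Cyp2f2 lies below 0 in the arrays labelled OVA and in OVA/PM against PBS/PBS, and the intervals of Scgb1a1 and Scgb3a2 include 0 in every comparison.

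The 2 lists that hold these 6 genes, club cell genes and upper airway and gland secretions, moved in 2 directions in OVA/PM. The second is a list of secreted products and does not mark a single cell type. Whether the first marks club cells alone in these lungs was not tested. Of 23 club cell genes tested in OVA/PM against PBS/PBS, among them Scgb1a1, Scgb3a2 and Cyp2f2, 11 fell and 2 rose, with a median log2 change of -0.34. Over all 11333 genes tested, 1574 rose and 1104 fell, and the median was 0.01. Gsta3, a glutathione transferase, fell by 1.58 on the log2 scale (limma adjusted p = 0.00774) and Pon1, a paraoxonase, by 1.32 (limma adjusted p = 0.000896). Cyp4b1, a cytochrome of club cells, fell by 0.99 (limma adjusted p = 0.00113), while Gsto1, a glutathione transferase of the omega class, rose by 1.21 (limma adjusted p = 0.00235). The number of falls depended on single arrays: it was 4 without PBS/PBS replicate 2, 5 without PBS/PBS replicate 1 or OVA/PM replicate 3, and at most 11 without any other array. Under 8 other settings of filter, scaling and test it was 6 to 12. Counts of list genes under other settings or without 1 array are given throughout without the share of all genes that passed there.

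Of the 23 club cell genes, 3 fell in the arrays labelled OVA and 1 rose (median -0.23, beside 859 falls and 1275 rises among 11326 genes, median 0.00). Aox3, an aldehyde oxidase, fell by 1.06 on the log2 scale and Cyp4b1 by 0.84 (limma adjusted p = 0.0204 and 0.0215). Gsto1 rose by 0.54 (limma adjusted p = 0.0346). None of the 23 passed in those labelled PM (median -0.04), where 11 of 11158 genes rose and none fell (median 0.03). Without 1 array the falls in the arrays labelled OVA numbered 0 to 6, with 0 without PBS/PBS replicate 1 or 2 or OVA/PBS replicate 1 or 3. Under the other settings they numbered 0 (replicate block) to 11 (SAM), again without the share of all genes that fell under each setting. A difference from OVA/PM in the count of falls was not tested.

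Of 16 genes of upper airway and gland secretions tested in OVA/PM, Scgb3a1, Bpifb1 and Bpifa1 among them, 11 rose and none fell, with a median log2 change of 2.01. Beside them, 13.9% of all genes tested rose. Scgb3a1 and Bpifb1 were 2 of the 11. The largest changes were those of Tff2, a trefoil peptide of mucus (5.92, limma adjusted p = 7.86e-05), Dmbt1, a scavenger glycoprotein of mucosal fluid (4.53, limma adjusted p = 0.00129), Lcn2, a lipocalin that binds bacterial siderophores (2.98, limma adjusted p = 0.000801), and Reg3g, an antibacterial lectin (2.87, limma adjusted p = 0.000932). Of the same 16, 10 rose in the arrays labelled OVA, Scgb3a1 and Bpifb1 among them, and none fell (median 1.40), where 11.3% of all genes rose. Dmbt1, Tff2, Lcn2 and Ltf, the iron-binding lactoferrin, were in front at 5.68, 3.64, 3.12 and 3.07. Without 1 array the count of rises in the arrays labelled OVA was 5 to 10 (5 without OVA/PBS replicate 3, 6 without PBS/PBS replicate 2), while that of OVA/PM was 11 throughout. In the arrays labelled PM, Bpifb1 and Tff2 (4.33, limma adjusted p = 0.0188) were the 2 of 15 that rose, 0 to 1 without 1 array, and the median was 0.17. Over all genes tested 0.0986% rose there. Dmbt1 lay under the filter level on all PBS/PBS arrays, so that its log2 changes are fitted values and no measured fold. Since it was tested only through the exposed group and could hardly fall, the counts that hold it are weighted toward rises. Tff2 is on the goblet cell list as well.

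**Figure D5:**
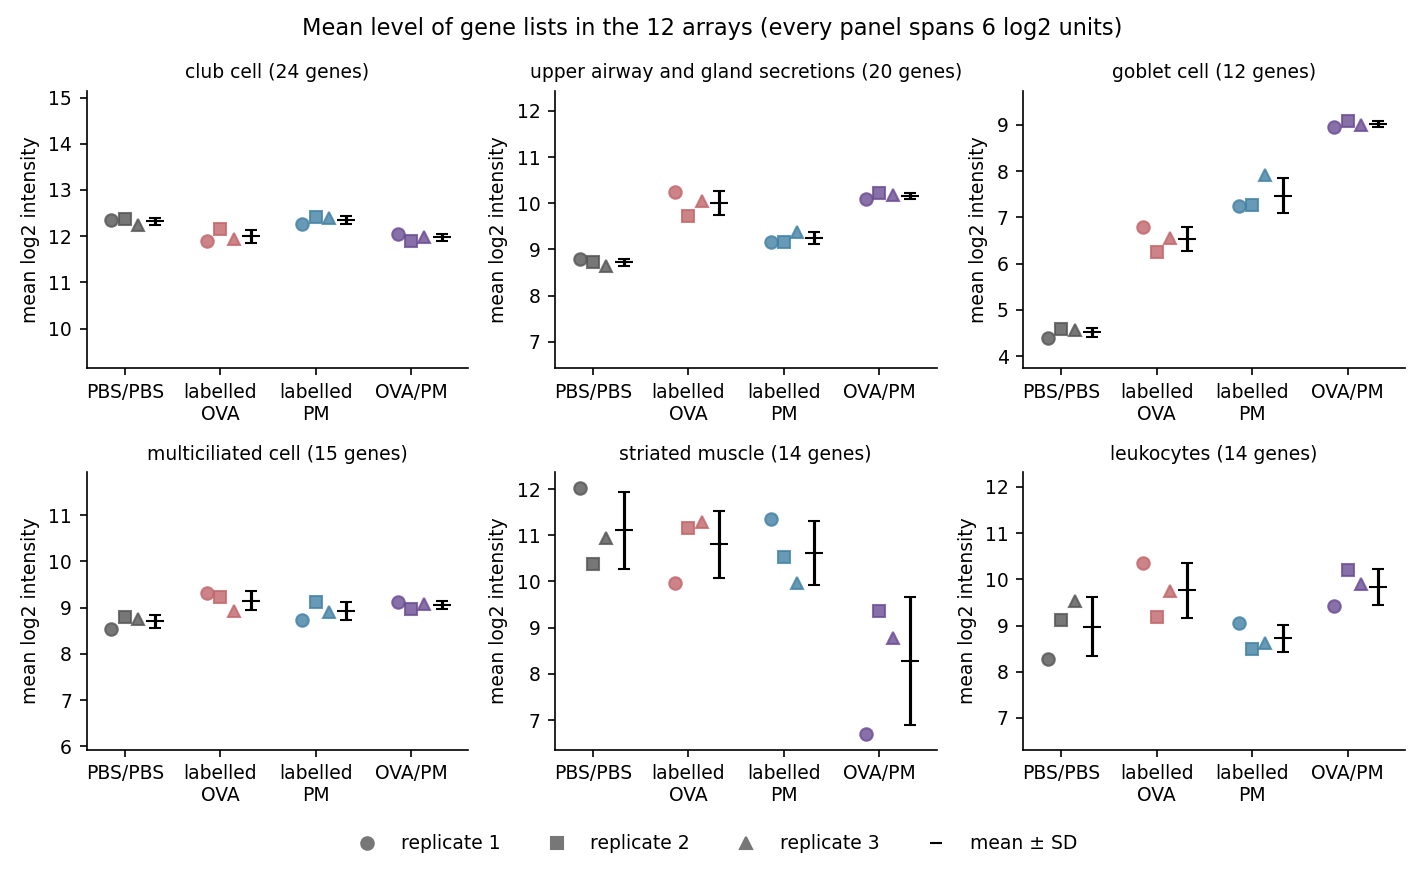
Mean level of the genes of each list (log2 intensity) of each array by group, for 6 lists; points are arrays, bars the mean and SD of 3 arrays, and every panel spans 6 log2 units. The mean of upper airway and gland secretions lies at 8.64 to 8.79 on the PBS/PBS arrays and 10.09 to 10.21 on the OVA/PM arrays, while that of club cell genes lies at 12.24 to 12.38 and 11.90 to 12.06. These means include the 6 genes. Without them the secretions lie at 7.99 to 8.19 and 9.56 to 9.66, and the club cell genes at 11.83 to 11.99 and 11.48 to 11.66.

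Some lists of markers of other lung cells held called genes as well, and their part in the results was not tested. Over all genes tested against PBS/PBS, 13.9% rose and 9.74% fell in OVA/PM. In the arrays labelled OVA 11.3% rose and 7.58% fell, and in those labelled PM 0.0986% rose. None of the multiciliated, leukocyte or striated muscle genes passed in the arrays labelled PM. Of goblet cell genes, 10 of 10 tested rose in OVA/PM, 5 of 8 in the arrays labelled OVA and 3 of 9 in those labelled PM. In that order these rises numbered 9 to 10, 4 to 6 and 2 to 5 without 1 array, and 7 to 11, 2 to 6 and 2 to 6 under the other settings. Of the 12 genes listed, 5 to 6 reached the filter level of 4.93 on the PBS/PBS arrays and 10 on the OVA/PM arrays. Genes that passed the filter only through the exposed group could hardly fall, so these counts are weighted toward rises. The mean level of all 12 was at most 4.58 on the PBS/PBS arrays, which is under the filter level. It was 6.26 to 6.78 on the arrays labelled OVA, 7.25 to 7.91 on those labelled PM and 8.96 to 9.09 on the OVA/PM arrays. Multiciliated cell genes had means of 8.55 to 8.79 on PBS/PBS arrays, 8.92 to 9.31 on those labelled OVA and 8.97 to 9.13 on OVA/PM arrays, and in the last 2 groups 7 and 6 of 15 rose and none and 1 fell. Without 1 array these rises numbered 1 to 4 (1 without OVA/PBS replicate 3) and 2 to 6 (2 without OVA/PM replicate 1), and 0 to 10 and 2 to 10 under the other settings. Of 13 leukocyte genes, 4 rose in the arrays labelled OVA (0 to 6 without 1 array, 0 to 9 under the other settings) and 5 in OVA/PM (3 to 8 and 4 to 9). Striated muscle genes, whose means ranged from 10.37 to 12.01 in PBS/PBS and from 6.71 to 9.35 in OVA/PM, fell in 7 of 14 cases in OVA/PM, in 1 case without OVA/PM replicate 1 or OVA/PM replicate 3, and in 0 (no filter or replicate block) to 11 (SAM) under the other settings. Of 14 genes of the cartilage that supports large airways, 1 lay over the filter level on every array and the list mean stayed at 3.17 to 3.46 in all groups. The marker check for lung tissue was met: 11 of 11 alveolar type 2 cell genes lay over the filter level on every array, with list means of 13.62 to 13.80. None of 5 basal cell genes tested passed against PBS/PBS in any group, and 7 of 7 proliferation genes rose in the arrays labelled OVA and in OVA/PM (2 and 4 with the 75th percentile filter). Of these 7, 4 reached the filter level on the PBS/PBS arrays. The rest were tested only through the exposed group, so this count too is weighted toward rises. In the arrays labelled PM none of the 4 proliferation genes tested passed.

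Of 18 genes for regulators of airway secretory cells, 3 rose and 2 fell in OVA/PM, and 2 rose and 3 fell in the arrays labelled OVA. These were 16.7% and 11.1% in OVA/PM, beside 13.9% and 9.74% of all genes, and 11.1% and 16.7% in the arrays labelled OVA, beside 11.3% and 7.58%, so that nothing about the list is read from them. Among its members, the log2 changes in OVA/PM were 1.19 for Elf3, an epithelial ETS factor, 0.78 for Sox2, a factor of the conducting airway, 0.53 for Ehf, another ETS factor, and -0.62 for Nkx2-1, the lung lineage factor whose motif was searched for above. None of the 18 passed in the arrays labelled PM. Without 1 array 2 to 4 rose and 1 to 2 fell in OVA/PM, and 0 to 3 rose and 0 to 2 fell in the arrays labelled OVA. Under the other settings the counts were 2 to 4 and 1 to 5, and 0 to 3 and 0 to 4.

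As a description over the 12 arrays, with no test, the genes whose levels ran most like each of the 6 were named by Pearson's r. The 12 arrays share 4 groups, so that a group difference alone gives a high r. For Bpifb1 they were Retnla (0.97), Tff2 (0.95) and Ccl8 (0.95), for Cyp2f2 Plpp3, Gstm1 and Gstk1 (0.98 each), and for Scgb3a1 Crcp (0.95), Prr29 and Fbxo36 (0.93 each). For Bpifa1, Nfatc1 reached 0.89, and Sdf4 and Orc3 0.88 each. Scgb1a1 ran most like Sftpc (0.97), Itm2b (0.94) and Kctd9 (0.89). With each group's mean taken off it ran most like Sftpc again (0.97), then Tmsb4x (0.96) and Tpt1 (0.95). Sftpc too lay near the top of the scale, with group means of 15.51 to 15.65. Whether that position has a part in the likeness was not tested. Scgb3a2 ran most like Sdr39u1, Olfml3 (0.89 each) and Sc5d (0.88).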

How the data were processed

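The 12 arrays, 3 per group, carried RNA of the whole lung of A/J mice. The authors made the deposited log2 intensities with GCRMA, which subtracts background probe by probe and normalizes across arrays, and these log2 values were used as deposited. Platform annotation gave 34958 probe sets 1 symbol, 932 several and 9211 none, and the brightest probe set stood for a gene. Sample titles gave the groups. The study states that the RNA of each group came from the lungs of 3 animals. The labels do not say whether these came from separate cages or days. The p-values weigh differences against the spread between these samples, which limma moderates across probe sets.

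Groups were compared pairwise with limma 3.58.1 in R 4.3.3, and all 4 groups entered the interaction, with Benjamini-Hochberg adjustment over the probe sets that passed a filter: 4.93 or more, the table's median, on all 3 arrays of 1 of the groups. The 64 control probe sets were left out. A call is an adjusted p under 0.05. The code was tested on simulated data with known changes.

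The 6 genes and the lists were chosen with earlier results of these data known. The text names all probe sets of the 6 genes, up to 4 genes per list and comparison (called, with the largest change) and the 3 genes most like each of the 6. Replicate numbers did not pair the arrays: 3 of 18 same-number pairs had correlations over 0.1 of their deviations from group means (median -0.06). Alternatives were a filter at 8.65 (the 75th percentile) or none, an offset of 16 on the linear scale, quantile normalization on top, 1 fit of all 4 groups, a replicate block, SAM with 20 relabelings, eBayes with a trend, the other probe set of Bpifb1, and leaving out each array. For gene lists they were chosen after seeing the data. RefSeq start windows of 4 of the genes were searched on both strands.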

Additional observations from a re-analysis of the deposited data

Results flagged for a closer look

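Bpifa1 was higher in the arrays labelled OVA than in those labelled PM by 1.10 log2 units (SE 0.15, limma adjusted p = 0.0338), and its changes against PBS/PBS ran in opposite directions, 0.42 and -0.68, neither of which passed on its own. The difference between the single exposures marks it for a closer look. This call was lost without 5 of the 6 arrays (limma adjusted p up to 0.149) and with no filter. In the comparison 5.2% of all probe sets passed. With the names OVA and PM exchanged, the direction turns around.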

How the results depend on the processing

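Of the 6 genes, 3 passed in OVA/PM against PBS/PBS, and 3 to 4 did so under every alternative and without any 1 array. In the arrays labelled OVA 3 passed, 2 with no filter (Cyp2f2 was lost), none with a replicate block and 2 to 3 without 1 array. In those labelled PM 1 passed. There 2 passed with all 4 groups in 1 fit and with SAM, none with no filter, a replicate block or the other probe set of Bpifb1, and 0 to 1 without 1 array. For OVA/PM against the arrays labelled OVA none passed, and none did without any 1 array. There 1, Bpifa1, passed with the filter at the 75th percentile, the offset of 16, SAM or eBayes with a trend. For OVA/PM against those labelled PM 2 passed, 0 with a replicate block and 0 to 2 without 1 array. Between the single exposures 1 passed, 0 with no filter, 2 with the 75th percentile filter or SAM, and 0 to 1 without 1 array. The cause was not tested, and these counts are given without the share of all probe sets that passed under each setting. Bpifa1 in OVA/PM against PBS/PBS passed with the 75th percentile filter, all 4 groups, the block and SAM. Small uncalled changes turned sign. Scgb1a1 in the arrays labelled PM against PBS/PBS turned to 0.024 with further quantile normalization. Without 1 array, the changes in those labelled PM ranged from -0.059 to 0.033 for Scgb1a1, -0.070 to 0.099 for Scgb3a2 and -0.10 to 0.0091 for Cyp2f2. For OVA/PM against those labelled PM, Scgb3a2 ranged from -0.17 to 0.00077. Between the single exposures Scgb1a1 ranged from -0.059 to 0.033, Scgb3a2 from -0.0071 to 0.16 and Bpifb1 from -0.0059 to 0.29. With the block, 1 of the upper airway and gland genes rose in the arrays labelled OVA (10 without it) and 6 of the club cell genes fell in OVA/PM (11 without it).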

Other observations

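Both gene families are larger on the array than the genes described. Of 10 BPI-fold genes with a probe set, Bpifa1, Bpifb1 and Bpifb5 were the 3 that reached the filter level on any array, and Bpifb5 had group means of 7.52 in PBS/PBS, 7.54 in the arrays labelled OVA, 7.70 in those labelled PM and 7.81 in OVA/PM. Of 6 secretoglobin genes, Scgb1a1, Scgb3a1 and Scgb3a2 were the 3 that did.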
